A study of Mus musculus with 5 samples.

Results

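The genes described here are 39 genes whose proteins build, dock, fuse, sense calcium for and recycle synaptic vesicles. They were taken as a named list, and all 39 were among the 14715 genes measured in 1954 single spiral ganglion neurons of the mouse cochlea. The list holds the core fusion proteins, the calcium sensors, the complexins, the active zone scaffold, the proteins of the vesicle itself, the Rab3 proteins, the disassembly and recycling machinery and the synucleins. The list was not drawn from the cells' values, but it was proposed with earlier results of these data in view.

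The CKO neurons came from 3 samples of mice carrying bhlhb5-Cre/+, a tdTomato reporter (Ai14/+) and 2 floxed Runx1 alleles (Runx1F/F), in which the Cre removes Runx1 from these neurons before birth. The control neurons came from 2 samples carrying the same Cre and reporter without the floxed Runx1 alleles, so the Cre and the reporter were shared by all samples. Mice of both sexes were taken at postnatal days 30 to 33, and tdTomato-positive cells were sorted from enzymatically dissociated cochleae for a droplet 3' assay. The cells are listed by genotype and not by sample, so each genotype is 1 pool (884 CKO and 1070 control neurons) without a replicate error, and no test between pools was made. A gene is therefore called different here where its 2 means lie at least 1.5-fold apart, and intervals are exact 95% intervals (Poisson for ratios, binomial for shares) that cover counting error only.

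Vesicle release depends on a SNARE complex in which Vamp1 or Vamp2 on the vesicle pairs with Snap25 and a syntaxin on the plasma membrane, with a synaptotagmin as the calcium trigger. Spiral ganglion neurons use this machinery at their central endings, where they release glutamate onto cochlear nucleus neurons, while at their peripheral endings they receive glutamate from hair cells. Type I neurons contact inner hair cells and are known to fall into types Ia, Ib and Ic, which differ in threshold and spontaneous firing, and type II neurons contact outer hair cells. Runx1 is a transcription factor of the RUNX family, whose core binding letters are read as TGTGGT or TGCGGT.

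For 4 members the 200 bases lying 250 to 51 bases before the annotated start are printed, so the start itself is not shown. They are 5′ to 3′ on the gene's strand, in lower case, with any TGTGGT or TGCGGT on either strand in capitals (on the opposite strand these read ACCACA or ACCGCA). The sequences are from RefSeq, build GRCm38.p6. Vamp1 and Syt2 were the forms high in type I neurons and Syt1 the form high in type II neurons. Sv2c was chosen as the member with 2 matches.
Vamp1, chr6:125215331-125215530: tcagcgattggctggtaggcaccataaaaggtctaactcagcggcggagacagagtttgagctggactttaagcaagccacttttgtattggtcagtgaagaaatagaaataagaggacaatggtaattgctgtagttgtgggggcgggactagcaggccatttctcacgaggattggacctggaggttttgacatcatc
Syt2, chr1:134646362-134646561: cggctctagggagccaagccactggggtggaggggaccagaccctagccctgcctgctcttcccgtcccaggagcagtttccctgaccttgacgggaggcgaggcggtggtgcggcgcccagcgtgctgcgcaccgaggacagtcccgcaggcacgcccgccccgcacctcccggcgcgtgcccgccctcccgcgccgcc
Syt1, chr10:109011026-109011225: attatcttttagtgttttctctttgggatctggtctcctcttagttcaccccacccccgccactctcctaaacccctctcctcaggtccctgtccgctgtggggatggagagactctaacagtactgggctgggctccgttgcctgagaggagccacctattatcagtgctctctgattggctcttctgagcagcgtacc
Sv2c, chr13:96132628-96132827: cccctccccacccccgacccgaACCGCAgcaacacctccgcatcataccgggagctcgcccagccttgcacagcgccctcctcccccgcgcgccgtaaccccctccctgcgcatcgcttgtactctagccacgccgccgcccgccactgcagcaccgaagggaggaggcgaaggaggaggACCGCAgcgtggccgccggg
Vamp1 and Syt2 lie on the plus strand, Syt1 and Sv2c on the minus strand. Syt1 and Syt2 each had 2 annotated starts, of which 1 is shown. In these windows Vamp1, Syt2 and Syt1 held 0 matches and Sv2c held 2, the first beginning at position -228 from the start. Of the 39 genes, 32 had a promoter entry, with 39 windows in all. Vamp2, high in type II neurons, had none. TGTGGT was in windows of 3 members (Dnm1, Napb, Rab3a) and in 11.6% of all 32851 windows, and TGCGGT was in windows of 4 (Napa, Sncb, Sv2c, Syn1) and in 4.04% of all windows. Either motif was in 7 of the 39 member windows, against 15.2% of all. A match describes these letters and is not a binding site.

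Neurons were put into classes in order by 3 genes outside the list. A neuron with at least 1 UMI (a unique molecular identifier, which marks 1 captured RNA molecule) of Dupd1 per 10000 was type II. Of the others, at least 3 of Lypd1 made type Ic, at least 150 of Calb2 made type Ia, and the rest were type Ib. The CKO pool held 384 type Ia, 216 type Ib, 132 type Ic and 152 type II neurons, against 242, 395, 314 and 119 in the control pool. Type Ia was thus 43.4% of CKO neurons and 22.6% of control neurons, so a class need not hold the same kind of cell in both genotypes. By stretch (defined below by barcode order) type Ia was 47.0%, 53.2% and 12.1% in CKO and 10.8% and 32.3% in control, so the shares overlap, and without stretch 5 the control share was 10.8%. Close to the Calb2 limit, between 100 and 200, lay 194 CKO neurons (22.0%) and 103 control neurons (9.63%), while 3 and 5 neurons lay near the Dupd1 limit. Of the type II markers, Th averaged 3.98 in CKO and 5.09 in control type II neurons, Plk5 3.51 and 4.63 and Ngfr 8.06 and 8.95. Prph, which encodes peripherin, averaged 0.838 and 2.83, over 1.5-fold lower in CKO, whereas Etv4 was at 0 and 0.00682 and Smad3 at 0.00303 and 0 there. B3gat1, a type Ia marker, averaged 2.12 in CKO and 2.02 in control type Ia neurons, and 1.04 and 0.0820 in type Ic neurons. Rxrg and Pcdh20, also type Ia markers, averaged 0.466 and 0.334 in CKO and 0.507 and 0.438 in control type Ia neurons. Both were higher in type II, at 0.628 and 2.0 in CKO and 0.565 and 2.25 in control. Calb1, a type Ib marker, averaged 2.56 in CKO and 1.31 in control type Ib neurons, and 1.90 and 0.284 in type Ia. Ttn, another, averaged 0.792 and 1.27 in type Ib and 0.0954 and 0.0528 in type Ia. Markers of other cells, where measured, averaged at most 0.948 in any class of either genotype (Col1a2, a fibroblast gene, in CKO type Ic), 0.320 for supporting cells (Sox2), 0.299 for hair cells (Myo7a) and 0.0448 for macrophages (Csf1r). Median depth was 27102 UMIs in CKO and 25326 in control type II neurons, and 47501 and 39393 UMIs in type I neurons. Runx1 RNA averaged 1.68 UMIs per 10000 in CKO and 1.23 in control neurons. Reads at the 3' end do not check the deletion, so the labels could not be checked on that gene.

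Barcodes run in alphabetical order in 5 consecutive stretches of the matrix, of which stretches 1, 3 and 4 are CKO and 2 and 5 control. No source used here names them as libraries, so their means are shown only as values. They share 1 barcode. Stretch 1 stood apart in several members described below, and stretch 4 held only 19 type Ia and 23 type II neurons. Each level is the mean over cells of a gene's UMIs per 10000. The assay counts molecules by their 3' ends, so levels are not divided by gene length. Log2 values compare such levels after 0.1 was added to each. A gene was counted in a comparison where the mean of the 2 levels reached 0.2. Stx1a, Unc13b, Rimbp2 and Rab3b fell short of this in all 9 comparisons, with levels of at most 0.187 in any class or stretch.

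In type I neurons the most abundant members were Snap25, Rab3a, Cplx1, Sncb and Syt11, each above 10 UMIs per 10000 in both genotypes, and 16 more lay between 1 and 10. The 39 genes together made up 1.43% of UMIs in CKO and 1.51% in control type I neurons. In type II neurons they made up 0.732% in CKO and 0.769% in control. Only Rab3a exceeded 10 in CKO type II neurons (11.3), and Rab3a (12.8) and Syt11 (10.0) did in control.

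Type II neurons carried Vamp2 where type I neurons carried Vamp1. Vamp2, a vesicle SNARE, averaged 4.11 in CKO and 4.91 in control type II neurons, against 0.397 and 0.466 in type I neurons of CKO and control. In type II neurons its means by stretch were 3.28, 4.87 and 3.83 in CKO and 4.83 and 5.03 in control, and in type I neurons 0.366, 0.413 and 0.426 in CKO and 0.479 and 0.456 in control. No type II stretch came near any type I stretch. Its partner Vamp1, the other neuronal vesicle SNARE, ran the opposite way, with 0.330 in CKO and 0.311 in control type II neurons against 6.77 and 7.88 in type I neurons. The log2 of type II over type I was 3.08 in CKO and 3.15 in control for Vamp2, and -4.00 in CKO and -4.28 in control for Vamp1.

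Of the UMIs of the Vamp1 and Vamp2 pair, Vamp2 held 90.3% (88.9 to 91.6) in CKO and 93.7% (92.4 to 94.9) in control type II neurons. In type I neurons it held 5.46% (5.18 to 5.75) in CKO and 5.57% (5.32 to 5.82) in control. The same held cell by cell. With every cell thinned to 10000 UMIs, Vamp2 outnumbered Vamp1 in 135 of 152 CKO and 118 of 119 control type II neurons, and Vamp1 outnumbered Vamp2 in 721 of 732 CKO and 940 of 951 control type I neurons. The exceptions among type II neurons were mostly CKO, with 5 neurons holding more Vamp1, 7 holding equal numbers and 5 holding neither. The difference between genotypes in these counts was not tested.

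The fast calcium sensors were divided in the same manner. Syt1 and Syt2 are closely related synaptotagmins that trigger synchronous release. Syt1 averaged 0.956 in CKO and 1.03 in control type II neurons, with stretch means of 1.18, 0.754 and 1.01 in CKO and 1.07 and 0.971 in control. In type I neurons Syt1 reached 0.0218 in CKO and 0.0101 in control. Syt2 averaged 3.44 in CKO and 2.70 in control type I neurons and 0.0183 and 0.0150 in type II neurons of CKO and control. Syt1 thus supplied 95.7% of the pair's UMIs in CKO (93.3 to 97.4) and 98.2% in control (96.0 to 99.3) type II neurons, against 0.923% and 0.334% in type I neurons.

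Traces of the minor form were unequal between genes. Syt2 in type II neurons stood at 0.532% of its type I level in CKO and 0.557% in control, whereas Vamp1 stood at 4.87% and 3.95%. After thinning, 1.32% of CKO and 0.840% of control type II neurons held a Syt2 UMI, and 25% and 24.4% held a Vamp1 UMI. Before thinning these shares were 2.63% and 0.840% for Syt2 and 48.7% and 47.1% for Vamp1. No class known to lack these genes was measured, and the part of free RNA in these traces was not tested.

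**Figure D1:**
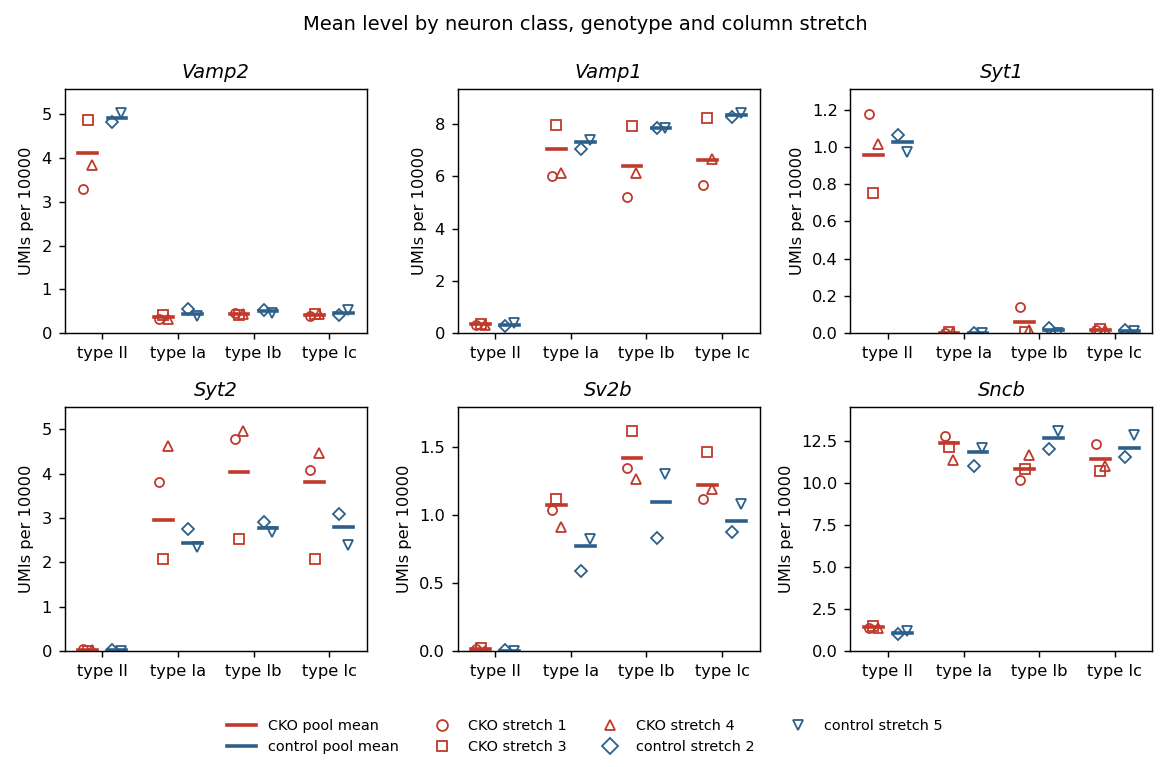
Mean level (UMIs per 10000, vertical axes from 0) of 6 members by neuron class, with CKO in red left of control in blue. Lines are pool means and open symbols the means of the 5 column stretches. Vamp2 and Syt1 sit high in type II neurons (4.11 and 0.956 in CKO), and Vamp1, Syt2, Sv2b and Sncb sit high in all 3 type I classes.

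Several further members were low in type II neurons. Sv2b and Sv2c, vesicle glycoproteins of the SV2 family, averaged 0.0129 and 0.0115 in CKO and 0.00251 and 0.0228 in control type II neurons. In type I neurons Sv2b averaged 1.20 in CKO and 0.967 in control, and Sv2c 0.571 and 0.473. Sv2a, the broadly expressed form, was the closest of the 3 between classes, with 1.12 in CKO and 1.35 in control type II neurons against 1.85 and 1.83 in type I neurons, so that it held 96.3% of SV2 UMIs in CKO and 97.9% in control type II neurons. Sncb, which encodes the presynaptic protein beta-synuclein, averaged 1.40 in CKO and 1.08 in control type II neurons against 11.8 and 12.2 in type I neurons. These genes had log2 values of type II over type I between -3.53 and -2.22 across both genotypes, apart from Sv2a at -0.68 in CKO and -0.41 in control (-0.63 without stretch 2). Without stretch 5 the control log2 of Sv2c was -1.87 and its mean level fell below the filter.

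The plasma membrane SNARE Snap25 averaged 9.37 in CKO type II neurons (9.28, 9.45 and 9.37 by stretch) and 7.95 in control (7.02 and 9.38). In type I neurons it averaged 28.1 in CKO (26.2, 27.7 and 33.2) and 27.8 in control (22.9 and 31.5). Every type II stretch lay below every type I stretch. Syt7, a slower calcium sensor linked to asynchronous release and vesicle replenishment, was 0.901 in CKO and 0.897 in control type II neurons against 4.67 and 4.37 in type I neurons. Cplx1, which binds the SNARE complex before fusion, was 4.21 and 4.82 against 14.5 and 15.4. Nsf, the ATPase that takes spent SNARE complexes apart, was 2.90 and 2.73 against 7.0 and 7.97, and Dnm1, the GTPase that pinches off endocytic vesicles, was 2.85 and 2.92 against 7.52 and 7.90. Amph, a dynamin partner, was 0.690 and 0.926 against 1.98 and 2.20. Syp and Syn1, which encode synaptophysin and synapsin I, differed less, at log2 -0.83 and -0.71 in CKO and -0.73 and -0.76 in control. Syn3 was 0.127 in CKO and 0.113 in control type II neurons against 0.234 and 0.392 in type I neurons, with log2 -1.21 in control, while in CKO it was below the level filter at -0.56. Rab3a and Rab3c were also lower, at -0.60 and -1.0 in CKO and -0.60 and -0.73 in control, as was Syngr1, at -0.93 and -0.74. Rab3a lay close to the limit, with -0.58 in CKO without stretch 1 or stretch 4, and Rab3c had -0.57 in control without stretch 2. Syngr1 had -0.38 in control without stretch 5.

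Fewer members were high in type II neurons. Beside Vamp2 and Syt1 these were Syngr3, a synaptogyrin of the vesicle membrane (0.876 in CKO and 1.02 in control type II neurons, against 0.281 and 0.371 in type I), and Rims2, an active zone scaffold that binds Rab3 (1.52 and 1.45 against 0.620 and 0.634). Syn2, synapsin II, was 1.66 and 1.65 against 0.817 and 1.01, with a control log2 of 0.65 that was 0.52 without stretch 5. Sncg, gamma-synuclein, was past the fold in CKO alone, at log2 0.73 in CKO and 0.52 in control. Without stretch 1 the CKO value was 0.44, and without stretch 5 the control value was 1.05. Its type I level was 0.691, 1.42 and 2.91 in CKO stretches 1, 3 and 4. Within families the balance moved with these differences. Syngr3 held 55.1% of synaptogyrin UMIs in CKO and 63.6% in control type II neurons, against 17% and 25.5% in type I, and Rims2 held 87.2% and 85.2% of the Rims1 and Rims2 UMIs, against 64.5% and 62.7%.

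Among the scaffold genes most levels were alike between classes on this scale. Pclo, Bsn and Erc2, which encode the large active zone proteins Piccolo, Bassoon and ELKS2, had log2 values of type II over type I between -0.27 and 0.28 in both genotypes. Rims1 had -0.36 in CKO and -0.43 in control (-0.60 without stretch 5), and Unc13a, the vesicle priming factor Munc13-1, -0.19 and -0.50. Ppfia3, the scaffold liprin-alpha-3, had -0.53 and -0.75, the CKO value being -0.67 without stretch 3. Napa and Napb, the adaptors of Nsf, had 0.53 and 0.05 in CKO and 0.49 and 0.03 in control, unlike Nsf itself at -1.24 and -1.51. Without stretch 1 the CKO value of Napa was 0.62. Cplx2, at 0.118 in CKO type II and 0.326 in CKO type I neurons, had -0.97, and without stretch 1 it was below the filter at -0.48. Syt11, a synaptotagmin that does not bind calcium, had -0.18 and -0.23, and at 83.7% in CKO and 83.8% in control it made up most of the Syt1, Syt2, Syt7 and Syt11 UMIs of type II neurons, against 57.9% and 62.8% in type I neurons.

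In CKO, 34 members passed the level filter for type II over type I, with 6 of them higher by 1.5-fold or more and 18 lower, beside 18.7% higher and 18.5% lower of 6566 genes. In control, 5 of 34 were higher and 18 lower, beside 18.2% and 18.9% of 6690 genes. The share of members lower in type II neurons was thus above that of all genes and the share higher was close to it, and the median log2 was -0.64 in CKO and -0.66 in control, beside 0.04 and 0.02 over all genes. Syt1, Syt2, Unc13a, Ppfia3, Sv2b and Sv2c in both genotypes, Cplx2 in CKO and Syn3 in control passed only through the class where they were higher. They are counted in these shares of members, and genes of that kind are counted in the shares of all genes. Taken stretch by stretch, Vamp2, Syt1, Rims2 and Syngr3 were at least 1.5-fold higher in type II neurons in all 5 stretches. Lower in all 5 were Vamp1, Syt2, Syt7, Snap25, Cplx1, Syn1, Syp, Sv2b, Sv2c, Nsf, Dnm1, Amph and Sncb. No share over all genes is given by stretch, so this is not read as a trait of the members. In both genotypes 21 of 33 members were past the fold in the same direction, beside 2112 of 6440 genes. Across the 33 members that passed in both genotypes, which are not independent points, Pearson's r of the 2 log2 values was 0.993, beside 0.981 over all genes.

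**Figure D2:**
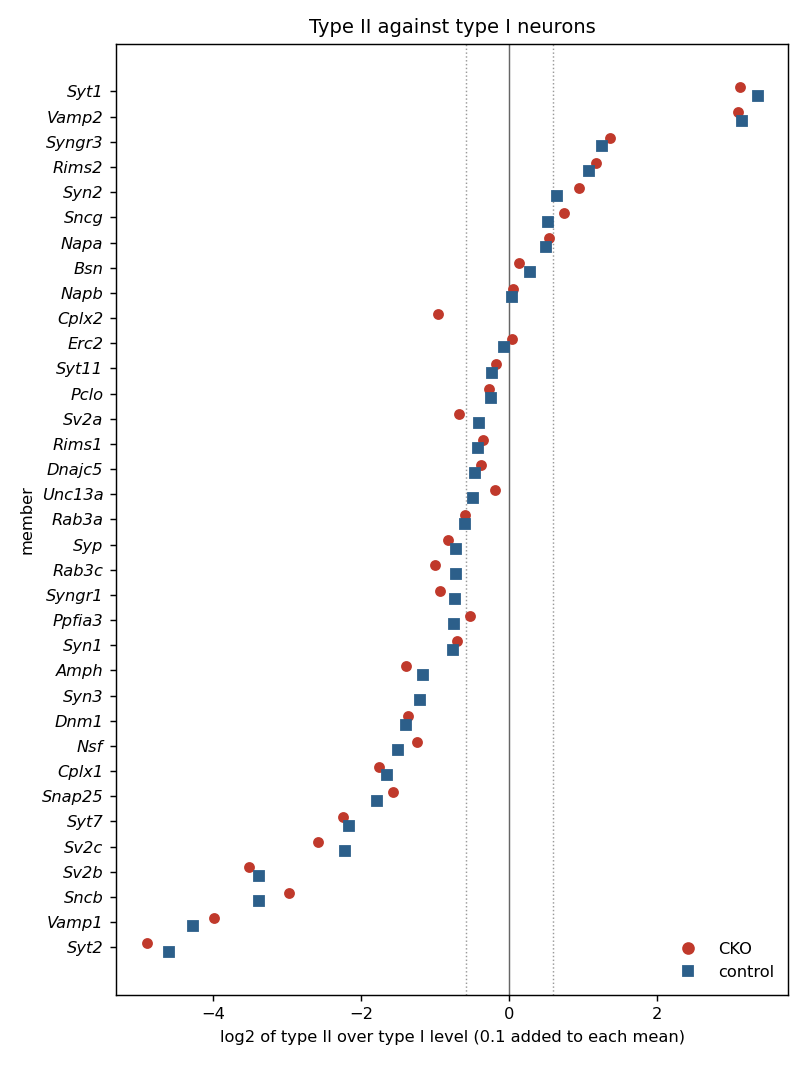
Log2 of the type II over the type I level (horizontal axis, 0.1 added to each mean) for each member that passed the level filter, with CKO as red circles and control as blue squares. Dotted lines mark 1.5-fold. Syt1 and Vamp2 lie above 3 and Vamp1 and Syt2 at -4.00 or below in both genotypes.

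Levels of single glial markers differed between these classes too. The 12 Schwann and satellite glia markers were all in the matrix, and their summed level averaged 22.6 in CKO and 28.2 in control type II neurons against 34.3 and 36.1 in type I neurons. By stretch the sum ran from 12.9 to 29.6 in type II and from 31.9 to 38.4 in type I neurons. S100b, a gene on that list, made up 0.340 in CKO and 0.192 in control type II neurons against 12.9 and 12.3 in type I. Apoe went the other way, with 6.41 and 12.3 in type II neurons against 0.294 and 0.166 in type I, and Pllp was at 0 in control type II neurons. Without S100b the sum averaged 22.23 in CKO and 27.99 in control type II neurons. In types Ia, Ib and Ic it averaged 17.82, 25.36 and 25.35 in CKO and 21.13, 23.44 and 26.33 in control. The type II mean without S100b thus lay within the type I range in CKO and above it in control. The median sum with S100b was 0.9279 in CKO and 0.7377 in control type II neurons against 32.29 and 38.97 in type I neurons. Among neurons whose glial sum without S100b was under 5 (91 CKO and 72 control type II neurons), Vamp2 held 95% of its pair's UMIs in CKO and 93.2% in control type II neurons, against 5.54% and 4.79% in type I neurons. Syt1 held 99.3% in CKO and 100% in control type II neurons, against 1.55% and 0.358% in type I neurons.

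Of 91 other vesicle cycle genes in the matrix, 64 passed the filter for type II over type I. In CKO 17 were higher and 19 lower, beside 18.7% and 18.5% of 6566 genes. In control 16 were higher and 20 lower, beside 18.2% and 18.9% of 6690 genes. By absolute log2 value in control the first was Rph3a, a Rab3 effector, at 19.4 in CKO and 20.3 in control type II neurons against 0.346 and 0.802 in type I neurons. Slc17a7, the vesicular glutamate transporter VGLUT1, was lower, at 0.484 and 0.670 against 7.88 and 8.31. Lin7a (3.79 and 4.38 against 0.586 and 0.523) and Gap43 (0.636 and 0.708 against 0.0141 and 0.0246) were higher, and the proton pump subunit gene Atp6v1g2 (0.692 and 0.694 against 4.66 and 5.22) was lower.

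Within type I neurons, type Ia and type Ic differed in few members. Cplx2, the second brain complexin, was far lower in type Ia than in type Ic by level. It averaged 0.0256 in CKO and 0.0245 in control type Ia neurons against 1.47 and 0.477 in type Ic neurons. The log2 values were -3.64 in CKO and -2.21 in control. Its levels were 0.161 in CKO and 0.0462 in control type Ib neurons, and 0.118 and 0.174 in type II neurons. Cplx2 passed the filter only through type Ic. After thinning, 1.82% of CKO and 1.65% of control type Ia neurons held a Cplx2 UMI, against 54.5% and 29.0% of type Ic neurons. Cplx1 by contrast was 15.4 and 15.7 in type Ia against 13.3 and 14.9 in type Ic. Cplx2 thus made up 9.81% of complexin UMIs in CKO (9.19 to 10.5) and 3.27% in control (3.02 to 3.54) type Ic neurons. In type II neurons this share was 2.85% in CKO and 3.27% in control.

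Sncg was the other member lower in type Ia in both genotypes. It averaged 0.908 in CKO type Ia neurons (0.407, 1.23 and 1.99 by stretch) and 1.09 in control (1.10 and 1.08), against 2.82 (1.45, 3.18 and 3.83) and 2.51 (1.74 and 3.61) in type Ic. In every one of the 5 stretches Cplx2 and Sncg were at least 1.5-fold lower in type Ia than in type Ic, with log2 from -4.51 to -1.60 for Cplx2 and from -1.65 to -0.61 for Sncg. Syngr1 and Syt7 were higher in type Ia in control, at 1.61 against 0.621 and 5.20 against 3.18, log2 1.24 and 0.69. In CKO the same genes were 1.53 against 1.02 and 5.03 against 3.37, log2 0.54 and 0.57, short of 1.5-fold. Without stretch 1 the CKO values were 0.87 and 0.91, and Syt2 and Sv2c were then past the fold at -0.65 and -0.82. Without stretch 4, Erc2 and Syn2 were past it in CKO at -0.61 and -0.70. Syn2 was lower in type Ia in control, at 0.681 against 1.14 (log2 -0.66), and 0.679 against 1.07 in CKO (log2 -0.58), while without stretch 5 the control value was -0.40. Cplx2 without stretch 5 had -1.60 in control, with a mean level below the filter. Whether these contrasts differ between genotypes was not tested.

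Of 34 members passing in CKO, 0 were at least 1.5-fold higher in type Ia and 2 lower, beside 1.4% and 3.33% of 6308 genes. In control 2 of 34 were higher and 3 lower, beside 2.09% and 3.83% of 6405 genes. Without stretch 1 the CKO count was 6 members, and without stretch 5 the control count was 3. No share over all genes is given without a stretch, so these 2 counts are not set against all genes. Of the other vesicle cycle genes, Rph3a (0.0991 in CKO and 0.134 in control type Ia against 1.15 and 1.73 in type Ic) and Slc17a6, the glutamate transporter VGLUT2 (0.704 and 0.279 against 3.17 and 3.32), were lower in type Ia. Apba2 was higher (1.37 and 1.5 against 0.570 and 0.581). On the 2 sides of the class limits, over both genotypes, Cplx2 averaged 0.0273 in the 157 neurons just above the Calb2 limit and 0.106 in the 140 just below it, and 1.04 in the 24 just above the Lypd1 limit and 0.325 in the 22 just below it. Vamp1 averaged 0.468 in the 4 neurons just above the Dupd1 limit and 2.05 in the 4 just below it. In the same neurons Vamp2 averaged 4.22 above and 3.53 below, Syt2 0 above and 2.91 below, and Syt1 0.324 above and 0.523 below.

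**Figure D3:**
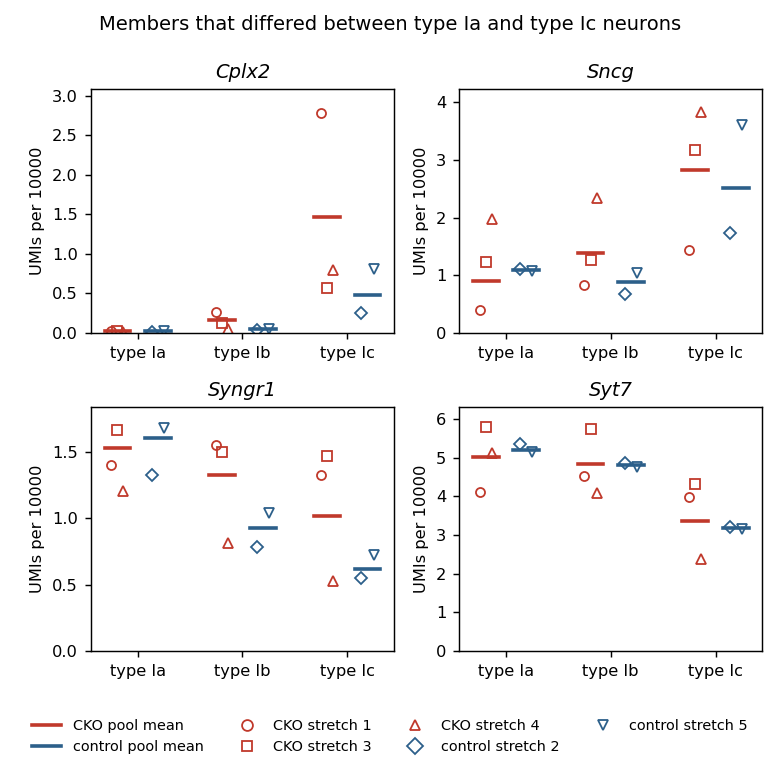
Mean level (UMIs per 10000, vertical axes from 0) of Cplx2, Sncg, Syngr1 and Syt7 in type Ia, Ib and Ic neurons, with CKO in red left of control in blue. Lines are pool means and symbols column stretches. Cplx2 in type Ic reaches 2.77 in CKO stretch 1 and lies between 0.247 and 0.807 in the other 4 stretches.

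Between genotypes the members were close in most classes. Over all neurons 0 of 34 members were at least 1.5-fold higher and 0 lower in CKO, beside 0.385% and 0.477% of 6494 genes. The nearest was Syn3, synapsin III, at log2 -0.55 (789 CKO and 1475 control UMIs, rate ratio 0.581, 0.533 to 0.634), and it was -0.64 without stretch 4 and -0.67 without stretch 5. Cplx2 was 0.89 without stretch 3 and 0.64 without stretch 5, and Syngr1 0.73 without stretch 5. The median log2 of the members was -0.13, beside -0.03 over all genes. Below 0 lay 24 of 34 members, beside 3790 of 6494 genes. In 10 of 34 the 3 CKO stretches all lay below the 2 control stretches (Vamp1, Syt11, Ppfia3, Syn1, Syn3, Syp, Rab3a, Dnm1, Amph, Dnajc5) and in 0 all above. Among all genes 18.6% had stretches that did not overlap, 844 genes with CKO below and 367 with CKO above. Type II neurons were 17.2% of the CKO pool and 11.1% of the control pool, and type II neurons held fewer UMIs of the members. Within types Ia, Ib, Ic and II the median log2 of the members was -0.06, -0.11, -0.09 and -0.06. Over all genes it was -0.02, -0.04, -0.03 and -0.03. The part of class makeup in the values over all neurons was not tested. In type I neurons alone the count past 1.5-fold was 1, Cplx2 at log2 0.59, and no share over all genes is given for it. The type I mean of Cplx2 differed 5.17-fold among the CKO stretches. With equal class shares in both pools its log2 value was 0.99.

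In type Ia neurons, 0 of 33 members were 1.5-fold higher and 0 lower in CKO, beside 0.305% and 0.209% of 6221 genes. Stretches did not overlap in 7 of 33, beside 16.2% of all genes (636 with CKO below and 372 above). Syn1, Syn3, Syngr3, Amph and Dnajc5 lay below control, and Sv2b and Rab3c, a vesicle GTPase, above. Sv2b averaged 1.07 in CKO (1.04, 1.12 and 0.909) and 0.770 in control (0.587 and 0.820). Syn1 averaged 2.29 in CKO (1.95, 2.55 and 2.62) and 2.74 in control (2.87 and 2.71). Leaving out stretch 3 took Syt2, Rab3c and Sncg past the fold, at log2 0.66, 0.60 and -0.83. Without stretch 5, Sv2b, Sv2c and Bsn were past it, at 0.77, 0.66 and -0.66.

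In type Ib neurons, Sncg was the 1 member of 33 past the fold and 0 were lower, beside 0.588% higher and 0.372% lower of 6458 genes. It averaged 1.39 in CKO (0.827, 1.27 and 2.34) and 0.887 in control (0.683 and 1.05), log2 0.60. The stretches overlapped, and without stretch 4 the log2 value was 0.21. Without stretch 2 it was 0.38. Stretches did not overlap in 10 of 33 members, all with CKO below (Vamp2, Syn1, Syn2, Syngr3, Rab3a, Napa, Dnm1, Amph, Sncb, Dnajc5), beside 21.2% of all genes. Those genes also lay mostly lower, 943 with CKO below and 428 above. Syn1 averaged 2.05 in CKO (1.55, 2.52 and 2.14) and 2.92 in control (2.95 and 2.89). Rab3a, the main Rab GTPase of synaptic vesicles, averaged 15.7 in CKO (14.9, 16.7 and 15.7) and 19.2 in control (19.7 and 18.7).

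Syt2 did not separate the genotypes. In type Ib neurons CKO averaged 4.05 and control 2.78 (log2 0.53), but by stretch CKO gave 4.78, 2.53 and 4.96 and control 2.90 and 2.68. The same split was seen in type Ia (3.82, 2.08 and 4.63 in CKO, 2.74 and 2.34 in control) and type Ic neurons (4.09, 2.08 and 4.46 in CKO, 3.10 and 2.39 in control). Stretches 1 and 4 were above both control stretches in every type I class and stretch 3 below both. Without stretch 3 the type Ib value was 0.78, and Syn1 then stood at -0.67. Other members moved past the fold in type Ib when 1 stretch was left out, namely Syn3 (-0.60) and Syngr1 (0.66) without stretch 4, and Syngr1 (0.70), Sv2b (0.70) and Sv2c (0.59) without stretch 5.

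**Figure D4:**
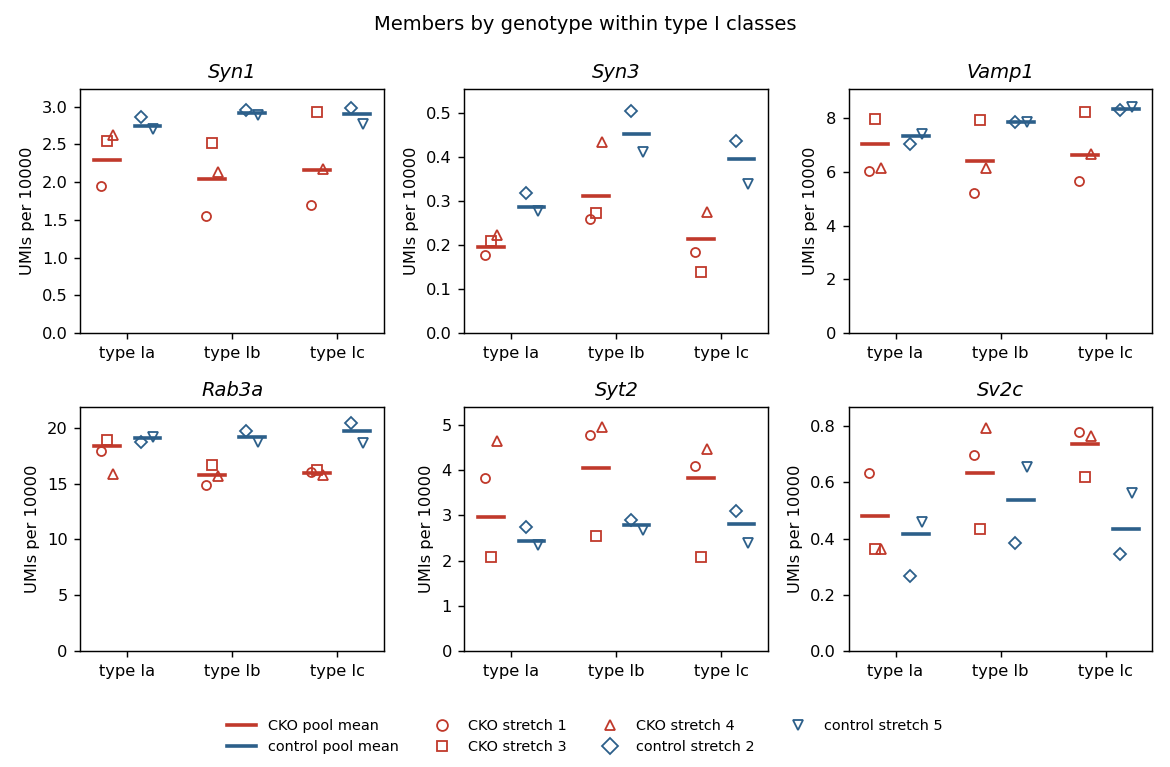
Mean level (UMIs per 10000, vertical axes from 0) of 6 members in type Ia, Ib and Ic neurons, with CKO in red left of control in blue, lines for pool means and symbols for column stretches. Syn1 and Syn3 lie lower in CKO by pool mean in all 3 classes, and Syt2 is high in CKO stretches 1 and 4 and low in stretch 3.

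Type Ic neurons held most of the members past the fold. There 3 of 34 were at least 1.5-fold higher and 1 lower in CKO, beside 0.714% and 0.528% of 6439 genes. Cplx2 averaged 1.47 in CKO and 0.477 in control, log2 1.44, from 847 and 599 UMIs with a rate ratio of 2.87 (2.58 to 3.19). By stretch it was 2.77, 0.573 and 0.8 in CKO and 0.247 and 0.807 in control. Only stretch 1 stood above the control range, and without it the log2 value was 0.51. The 48 type Ic neurons of stretch 1 also differed in other ways, with a mean Lypd1 of 15.8, Calb2 of 45.3 and Calb1 of 2.93, against Lypd1 between 23.1 and 42.2, Calb2 between 4.46 and 38.8 and Calb1 between 0.0683 and 1.5 in the other stretches. Their part in the Cplx2 value was not tested. Among type Ic neurons with a glial sum without S100b under 5, the log2 value was 2.77. Among those with Calb2 under 10, Cplx2 averaged 1.67 in 75 CKO neurons and 0.557 in 207 control neurons. In type Ib neurons Cplx2 was below the filter, at 0.161 in CKO and 0.0462 in control.

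Sv2c averaged 0.738 in CKO type Ic neurons (0.778, 0.619 and 0.764) and 0.435 in control (0.347 and 0.562), log2 0.65. Its stretches did not overlap, but the value fell short of 1.5-fold without stretch 2 (0.34), from summed UMIs (0.54) and after thinning (0.48). Syngr1, which encodes synaptogyrin 1, averaged 1.02 in CKO (1.33, 1.48 and 0.526) and 0.621 in control (0.551 and 0.722), log2 0.63. Stretch 4 lay below both control stretches, and the value was 0.39, 0.44 and 0.47 without stretches 1, 2 and 3. Syn3 averaged 0.214 in CKO (0.184, 0.139 and 0.276) and 0.397 in control (0.437 and 0.340), log2 -0.66. The CKO stretches all lay below control, with -0.49 without stretch 2 and -0.57 without stretch 3. Syt2 was past the fold without stretch 2 (0.65) or stretch 3 (0.59), and Sncg without stretch 5 (0.67).

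In type Ic, stretches did not overlap in 11 of 34 members, 2 with CKO above (Sv2b, Sv2c) and 9 below (Vamp1, Bsn, Ppfia3, Syn3, Syp, Rab3a, Napb, Dnm1, Amph), beside 18.6% of all genes. Those genes split into 384 with CKO above and 812 below. Vamp1 averaged 6.63 in CKO (5.67, 8.24 and 6.66) and 8.34 in control (8.29 and 8.42), log2 -0.33. The glial sum in type Ic neurons was 37.5 in CKO and 37.9 in control. The variance over mean among CKO type Ic neurons after thinning was 3.24 for Cplx2 and 3.17 for Snap25, and the median of 32 members was 1.42. These values pool stretches whose Cplx2 means differ.

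Type II neurons showed 0 of 28 members 1.5-fold higher and 0 lower in CKO, beside 0.553% and 0.323% of 6507 genes. Stretches did not overlap in 5 of 28 (Syngr1 and Sncb above control, Bsn, Napb and Amph below), beside 19.6% of all genes (480 above and 796 below). Sncb averaged 1.40 in CKO (1.34, 1.47 and 1.37) and 1.08 in control (1.0 and 1.19), log2 0.35. Amph averaged 0.690 in CKO (0.669, 0.685 and 0.757) and 0.926 in control (0.863 and 1.02), log2 -0.38. Sncg was past the fold without stretch 2 (0.71) and Syn1 without stretch 3 (-0.61). Vamp2, the main vesicle SNARE of this class, had log2 -0.25 and Syt1 -0.10, both with overlapping stretches.

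**Figure D5:**
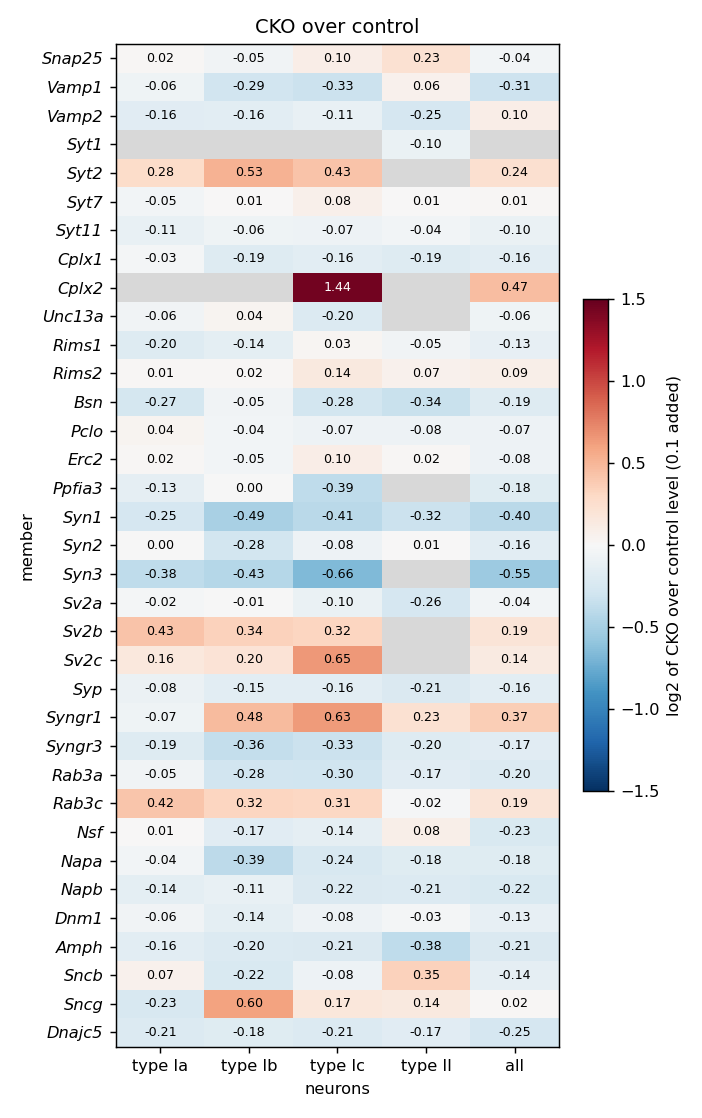
Log2 of the CKO over the control level (colour, 0.1 added to each mean, number in each cell) for each member in type Ia, Ib, Ic, II and all neurons. Grey marks members below the level filter. Cplx2 in type Ic is the largest value, at 1.44, and the synapsin genes Syn1 and Syn3 are below 0 in every type I class.

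Of the other vesicle cycle genes, 0 of 61 were past 1.5-fold over all neurons. Within classes 1 of 57 was higher in CKO type Ia, 0 of 62 in type Ib, 1 of 61 in type Ic and 1 of 64 in type II neurons, and 0 were lower, beside the shares of all genes given above for each class. Slc17a6 was the one in type Ia (0.704 in CKO and 0.279 in control) and Basp1 the one in type II (3.56 and 1.68). The median log2 of the 61 genes over all neurons was -0.08. The genes of 11 members overlap another protein-coding gene, 3 of them on the same strand, in the GENCODE M21 annotation of build GRCm38. On the same strand Syt1 overlaps Gm5136, Sv2c overlaps Gm20075 and Syn2 overlaps Gm17482. On the opposite strand Vamp1 overlaps Tapbpl and Cd27, Syt2 overlaps Ppp1r12b, and Syn1, Syn2 and Syn3 overlap Timp1, Timp4 and Timp3, among others. Whether reads were assigned by strand is not given in the sources used here, so their UMIs could include some of these genes.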

How the data were processed

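The authors deposited 1 matrix of natural log values per gene and cell, ln(1 + UMIs scaled to 100000 per cell), with a deposited genotype entry (another kind of value, not a measurement) for each cell. Cell Ranger, Seurat and mm10 are named, per the submitters' processing notes, without versions. Whole UMI counts were recovered for 100% of values above 0 (tolerance 0.01), and cells held 10379 to 100856 UMIs. One barcode occurs in 2 stretches, so cells were joined by position. No doublet caller was run.

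Levels, classes, the 0.1 added before log2, the level filter of 0.2 and the 1.5-fold limit are as in the report. Shares of cells with a UMI were taken after thinning each cell to 10000 UMIs, and the calculation was tested on simulated data. Python 3.11.15, numpy 2.4.6, pandas 2.3.3, scipy 1.17.1 and matplotlib 3.10.9 were used. Members past 1.5-fold in any of 9 comparisons, the most abundant member of each role and up to 6 other vesicle cycle genes per comparison were to be named. The members and lists were chosen with earlier results of these data known. Alternatives changed the added value, filter, thinning, class limits, centring, glial level and stretches used. Some genes of the list of other vesicle cycle genes are not reported here.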

Additional observations from a re-analysis of the deposited data

Results flagged for a closer look

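For Sncb, the gene of beta-synuclein, the CKO and control stretches did not overlap in 2 classes, in opposite directions, though neither difference reached 1.5-fold (log2 0.35 in type II and -0.22 in type Ib). Stretches did not overlap in 19.6% of all genes in type II and 21.2% in type Ib. In type II neurons its CKO stretches (1.34, 1.47 and 1.37 UMIs per 10000) all lay above the control stretches (1.0 and 1.19). In type Ib neurons the CKO stretches (10.2, 10.8 and 11.7) all lay below the control stretches (12.0 and 13.1). The log2 value of CKO over control was 0.57 higher in type II than in type Ib neurons, and this difference was not tested.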

How the results depend on the processing

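No paired analysis was possible because cells cannot be assigned to the numbered samples. Each genotype is 1 pool, so nothing here measures the spread between mice, and shallow members (Stx1a, Unc13b, Rimbp2, Rab3b) were not compared. Of the comparison results under alternatives 242 stayed within their margin, 74 moved and 0 reversed; of single-gene results and further shares 818 stayed, 84 moved and 0 reversed. The cause was not tested. The requirement of a glial sum under 5 could not be run for type I classes, since 6 CKO and 5 control type I neurons met it. The glial sum without S100b under 5 and type Ic neurons with Calb2 under 10 were chosen after seeing the data. Counts of members under changed settings or without a stretch are given below without a share over all genes. They show only how the reported counts moved.

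For CKO over control in all neurons, the count past 1.5-fold was 0 as reported, 2 with 0.01 added and 1 each after thinning, under either glial limit, with equal class shares and in type I neurons alone. The median log2 was -0.077 without a level filter, -0.047 at a glial sum under 5 and -0.083 without S100b. In type Ia the count was 2 after thinning. In type Ib the count was 0 with 0.5 added, after thinning or with class limits of 2, 6 and 200, 2 without a filter and 3 at the glial limit without S100b. Its median was -0.075 with 0.5 added, -0.054 without a filter, -0.15 at levels of at least 1, -0.072 after centring and -0.065 with limits of 0.5, 1.5 and 100. In type Ic the count was 1 with 0.5 added, 0 at levels of at least 1, 2 with Calb2 under 10 and 6 at the glial limit without S100b (Ppfia3 at -0.67 and Syn1 at -0.70 were added), and the median was -0.14 at the glial limit without S100b. In type II the median was -0.11 from summed UMIs, -0.034 without a filter, -0.12 at levels of at least 1 and -0.19 after thinning.

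For type II over type I, the median was -0.48 in CKO and -0.41 in control with 0.5 added, and -0.53 and -0.46 without a filter. In control it was -0.56 after thinning, and the count was 15 at levels of at least 1. For type Ia over type Ic in CKO, the count was 5 with 0.01 added, 1 at levels of at least 1, and 4 after thinning, with limits of 2, 6 and 200 or at the glial limit without S100b, and the median was 0.082 at levels of at least 1. In control the count was 3 and the median -0.038 at levels of at least 1, and the median was -0.20 at the glial limit without S100b. The Vamp2 share in CKO type II was 92.6% from mean levels and 95% under both glial limits, and in control type I 5.68% with limits of 2, 6 and 200 and 4.79% at the glial limit without S100b. The Syt1 share in CKO type II was 91.8% with limits of 0.5, 1.5 and 100 and 99.3% under both glial limits.

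Leaving out 1 stretch at a time gave, for CKO over control, counts of 0 to 3 in all neurons, 0 to 3 in type Ia, 0 to 4 in type Ib, 2 to 5 in type Ic and 0 to 1 in type II. The medians ran from -0.15 to -0.088 in all neurons, -0.18 to -0.030 in type Ia, -0.15 to -0.054 in type Ib, -0.13 to -0.062 in type Ic and -0.13 to -0.024 in type II. For type Ia over type Ic, counts were 2 to 6 in CKO and 3 to 5 in control, with control medians of -0.15 to -0.035.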
